A study of Arabidopsis thaliana with 32 samples.

Results

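HY5, a bZIP transcription factor of light responses, was followed here together with its close relative HYH, with the ubiquitin ligase COP1 and its partners SPA1, SPA2, SPA3 and SPA4, and with RUP1 and RUP2, repressors of UV-B signalling. The 9 genes were chosen by their locus identifiers, with earlier results of these data known. All 9 of them were among the 21525 genes in the table, and all 9 were among the 21469 genes that passed the filter on low values.

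The study exposed Arabidopsis thaliana wild-type plants of the accession Col-0 to either growth light or a treatment that damages photosystem I, at 4 CO2 concentrations, and sequenced leaf mRNA. Plants were 6 to 7 weeks old and had been raised in short days with 8 h of light of 100 µmol m-2 s-1. GL-treated leaves stayed in that growth light for 3 h, whereas PSI-PI-treated leaves received, for the same 3 h, repeated cycles of 30 s of growth light and 3 pairs of weak red light for 5 s (660 nm, at 35 µmol m-2 s-1) with a pulse of strong white light for 1 s (at 1000 µmol m-2 s-1). Each light treatment was given at 0, 100, 400 and 1000 ppm CO2, and each of the 8 groups held 4 biological replicates of the seventh leaf. The red light and the pulses are themselves light signals. They were given to every PSI-PI-treated leaf and to no GL-treated leaf, so they cannot be told apart from damage to photosystem I.

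In darkness, COP1 and the SPA proteins form an E3 ubiquitin ligase that marks HY5 and other light-signalling factors for degradation. Light absorbed by phytochromes, cryptochromes and the UV-B receptor UVR8 inactivates this ligase, HY5 accumulates, and it binds ACGT-containing elements in the promoters of genes for photomorphogenesis, pigments and photoprotection. RUP1 and RUP2 are WD40-repeat proteins that return active UVR8 to its inactive dimer, and their genes are themselves induced through UVR8 and HY5. Most of this regulation is known from seedlings, and much of it acts on protein stability, which transcript levels do not show.

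The 32 libraries held 18494378 to 31211055 normalized counts. The median correlation of a library with its group mates was 0.951 in replicate 1 of PSI-PI at 0 ppm and 0.971 to 0.988 in the others, so the 0 ppm light response and the comparison of 0 with 400 ppm under PSI-PI are also given without that leaf where it changed a call or a value by more than 1.5 times, and for the genes called. Of the leaf genes, the Rubisco small subunit gene RBCS1A had at least 107987 normalized counts in every library, the guard-cell gene MYB60 had 113 to 337 and the phloem gene SUC2 had 2086 to 4414. The floral genes AP3 and PI stayed at or below 10.3 and 3.02 normalized counts, and the seed gene SESA1 stayed at or below 5.55. SCR, taken as a root marker, had 191 to 830.3. The other root markers, RHD6 and IRT1, were absent from the deposited values, as were the seed genes CRA1 and OLEO1. In whole leaves, fewer cells of a type and less RNA per cell cannot be told apart.

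The promoters of HY5, HYH, COP1, SPA3 and RUP1 are shown because these genes include the 3 with the largest difference between the light treatments and because all 5 carry the letters of an element that HY5 is known to bind. SPA2, which had the smallest difference between the light treatments, carries such letters too and is not shown. RUP2 and SPA4, which differed more than COP1, have no match in the 250 bases before the gene start. Each sequence holds the 250 bases before the annotated gene start (RefSeq, TAIR10.1), read 5′ to 3′ on the strand of the gene, with ACGTG or CACGTT on either strand in capitals.
HY5: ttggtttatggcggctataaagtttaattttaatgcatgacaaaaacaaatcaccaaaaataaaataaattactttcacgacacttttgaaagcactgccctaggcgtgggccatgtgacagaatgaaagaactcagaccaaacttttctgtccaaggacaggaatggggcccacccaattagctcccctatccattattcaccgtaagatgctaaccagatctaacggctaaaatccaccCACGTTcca
HYH: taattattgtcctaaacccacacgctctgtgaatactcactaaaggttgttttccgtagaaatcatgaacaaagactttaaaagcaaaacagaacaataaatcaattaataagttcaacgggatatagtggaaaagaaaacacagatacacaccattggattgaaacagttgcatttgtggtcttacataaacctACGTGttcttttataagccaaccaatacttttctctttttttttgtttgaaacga
COP1: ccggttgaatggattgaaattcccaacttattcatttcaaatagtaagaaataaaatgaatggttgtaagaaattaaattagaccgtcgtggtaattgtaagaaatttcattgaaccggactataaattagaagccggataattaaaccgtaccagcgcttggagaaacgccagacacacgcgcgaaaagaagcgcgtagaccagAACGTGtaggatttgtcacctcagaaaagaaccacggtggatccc
SPA3: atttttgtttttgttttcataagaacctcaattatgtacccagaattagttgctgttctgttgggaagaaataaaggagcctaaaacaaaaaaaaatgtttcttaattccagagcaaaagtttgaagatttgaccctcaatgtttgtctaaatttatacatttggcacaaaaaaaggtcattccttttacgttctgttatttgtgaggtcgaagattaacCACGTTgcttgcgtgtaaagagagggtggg
RUP1: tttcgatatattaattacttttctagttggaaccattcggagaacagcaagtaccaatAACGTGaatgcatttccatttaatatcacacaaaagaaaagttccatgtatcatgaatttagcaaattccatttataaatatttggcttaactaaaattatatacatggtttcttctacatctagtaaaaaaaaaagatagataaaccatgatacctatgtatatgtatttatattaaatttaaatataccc

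These windows lie at chr5:3595074-3595323 (minus strand), chr3:6023594-6023843 (plus strand), chr2:13977631-13977880 (plus strand), chr3:5173106-5173355 (minus strand) and chr5:21216522-21216771 (plus strand). In the 300 bases from 250 before to 50 after the gene start, ACGTG was found on either strand in 7 of the 9 genes, against 26.7% of 27443 protein-coding genes. The longer CACGTT, which contains ACGTG on its other strand, was found in HY5, COP1, SPA2, SPA3 and RUP1, that is in 5 of 9 against 8.95%. Its first base lay at -9 in HY5, -30 in SPA3, -45 in COP1, -192 in RUP1 and -241 in SPA2, counted from the gene start. The full palindromic G-box CACGTG was in 0 of 9 of these windows and in 7.68% of all. RUP2 held ACGTG at position 18 inside the transcribed part, and SPA1 and SPA4 held none of the 3 motifs in this window. CACGTT was counted after the letters had been seen, and a match of letters is a description of the sequence only.

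All 9 genes were upregulated by the PSI-PI treatment when the 4 CO2 levels were averaged. HYH and HY5 were the most strongly upregulated, with mean normalized counts 4.26 and 4.36 times those of GL-treated leaves, followed by SPA3 (2.49 times) and RUP2 (2.10 times). SPA4, RUP1, COP1, SPA1 and SPA2 had ratios of 1.78, 1.55, 1.36, 1.32 and 1.17. A gene is called here when its adjusted p from limma is under 0.05, and 18.8% of all tested genes were called higher in this comparison, against 9 of 9 of these genes. With the additional threshold of an absolute log2 difference of at least 1, HY5, HYH and SPA3 were DEGs on the upper side, that is 3 of 9 against 1.37%. Ordered by log2 difference from the highest, HYH stood at place 15, HY5 at 18 and SPA3 at 126 of 21469 genes, whose median was -0.01. For 0 of the 9 genes did all 16 PSI-PI-treated leaves lie above all 16 GL-treated leaves, which was the case for 0.116% of all genes. All 9 calls held when any of the 32 leaves was left out.

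**Figure D1:**
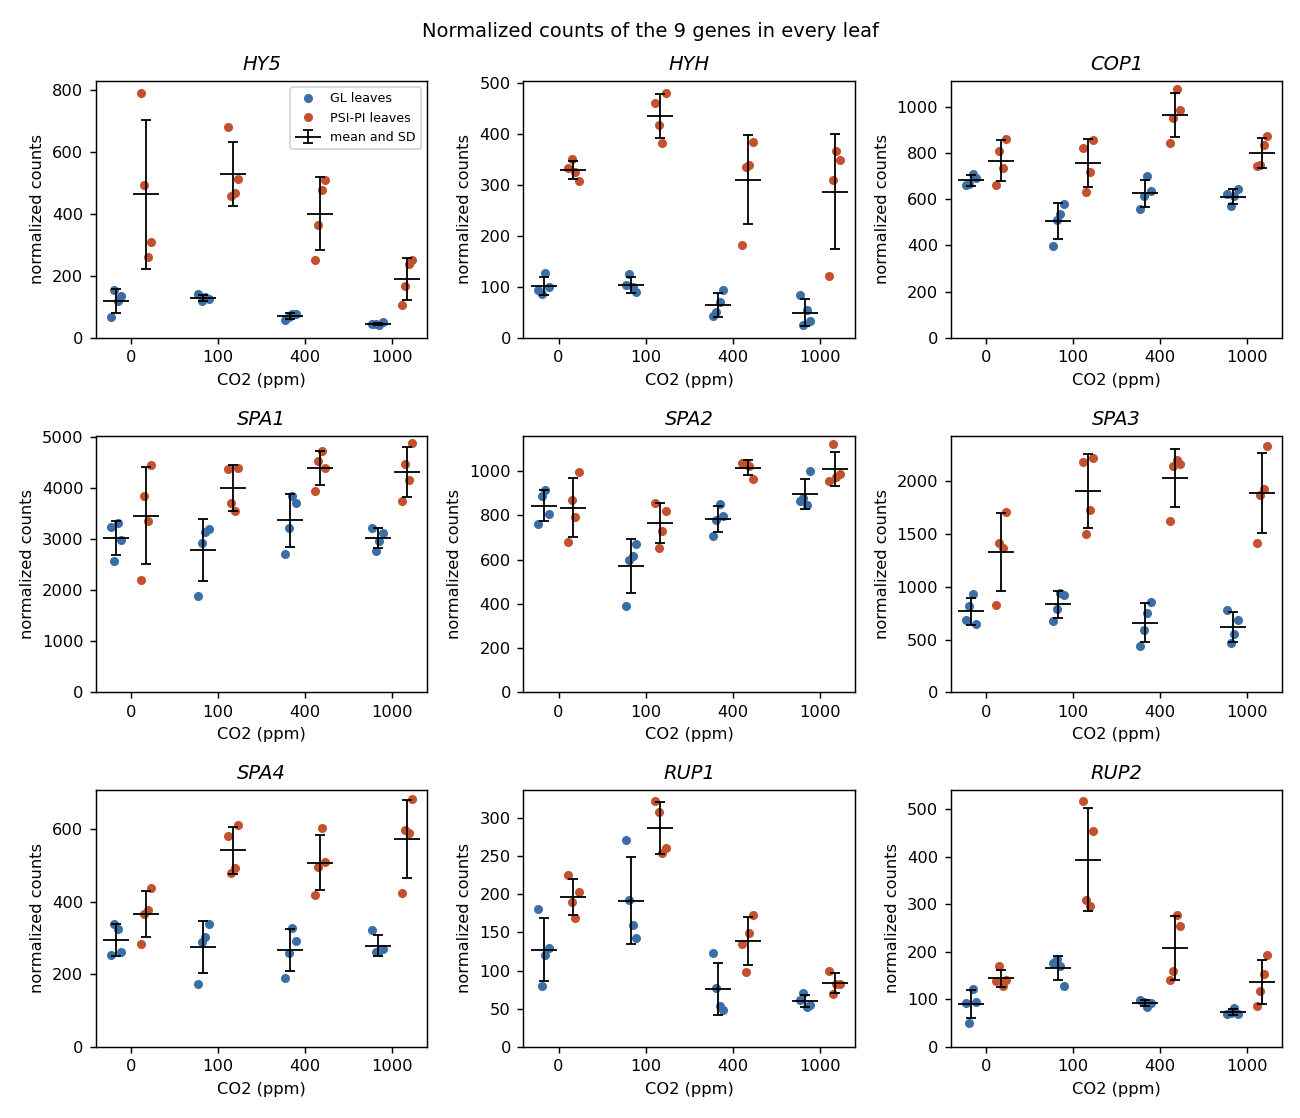
Normalized counts (vertical axis, from 0) of the 9 genes at 0, 100, 400 and 1000 ppm CO2 (horizontal axis) in GL-treated (blue) and PSI-PI-treated (red) leaves, 1 point per leaf, with the mean and SD of each group of 4. In HY5, HYH, SPA3 and SPA4, 15 of the 16 PSI-PI-treated leaves lie above all 16 GL-treated leaves.

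HY5 (AT5G11260, chromosome 5, 3593335 to 3595073, minus strand) is the bZIP factor that promotes photomorphogenesis. In GL-treated leaves it had 67.6, 155, 119 and 135 normalized counts at 0 ppm, 141, 119.7, 131 and 125 at 100 ppm, 56.1, 68.3, 76.5 and 75.9 at 400 ppm and 46.1, 44.1, 41.9 and 49.99 at 1000 ppm. With PSI-PI it had 791, 492, 261 and 310.1 at 0 ppm, 680.2, 457, 466 and 513 at 100 ppm, 252, 364, 477 and 509.6 at 400 ppm and 106, 166, 239.8 and 251 at 1000 ppm. The groups of the same CO2 level did not overlap, and the lowest PSI-PI-treated leaf, at 1000 ppm, was the only leaf of its treatment within the GL range of 41.9 to 155. On the log2(value + 1) scale HY5 was higher by 1.88 ± 0.29 (SE) at 0 ppm, 2.01 ± 0.29 at 100 ppm, 2.48 ± 0.29 at 400 ppm and 1.97 ± 0.29 at 1000 ppm, and by 2.08 ± 0.14 on average (limma, adjusted p = 9.88e-12). At 0 ppm the highest value, 791, was that of the leaf that stands apart, and without it the difference was 1.57 ± 0.27 (limma, adjusted p = 0.000946). With only the 8 libraries of 0 ppm in the fit, the HY5 call at that level was lost (limma, adjusted p = 0.12).

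HYH (AT3G17609, chromosome 3, 6023844 to 6024710, plus strand) encodes the closest relative of HY5, with which it partly shares functions. Its GL-treated leaves had 92.9, 86.7, 127 and 100.1 normalized counts at 0 ppm, 103, 125, 98.8 and 89.2 at 100 ppm, 43.4, 49.9, 71.1 and 93.9 at 400 ppm and 84.0, 24.7, 54.0 and 33.0 at 1000 ppm. Its PSI-PI-treated leaves had 333, 349.8, 324 and 308 at 0 ppm, 459, 418, 382 and 480.4 at 100 ppm, 183, 335, 339 and 384 at 400 ppm and 121, 310.0, 366 and 349 at 1000 ppm. As for HY5, the light treatments did not overlap at any CO2 level. Replicate 1 was the lowest PSI-PI-treated leaf at both 400 and 1000 ppm. The log2 differences were 1.70 ± 0.31 (SE), 2.06 ± 0.31, 2.26 ± 0.31 and 2.55 ± 0.31 from 0 to 1000 ppm and 2.14 ± 0.16 on average (limma, adjusted p = 3.11e-11). At 0 ppm it was 1.69 ± 0.34 without the leaf that stands apart (limma, adjusted p = 0.00358). The coding sequences of HY5 and HYH were identical at 68.4% of aligned bases.

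The ligase genes were upregulated to very different degrees, with SPA3 and SPA4 ahead of COP1, SPA1 and SPA2. SPA3 (AT3G15354, chromosome 3, 5169095 to 5173105, minus strand) encodes a partner of COP1 in light-grown plants. It had 682, 813, 929 and 646 normalized counts in GL at 0 ppm, 679, 785, 945 and 921 at 100 ppm, 435, 592, 752 and 859 at 400 ppm and 778, 467, 548 and 680.3 at 1000 ppm. Under PSI-PI the values were 823, 1414, 1367 and 1703 at 0 ppm, 2184, 1503, 1729 and 2220.0 at 100 ppm, 1622, 2146, 2198 and 2158 at 400 ppm and 1412, 1865, 1926 and 2336 at 1000 ppm. The treatments overlapped at 0 ppm only, through the leaf that stands apart (823). The log2 differences were 0.76 ± 0.21 (SE), 1.19 ± 0.21, 1.66 ± 0.21 and 1.61 ± 0.21 from 0 to 1000 ppm and 1.303 ± 0.11 on average (limma, adjusted p = 2.43e-10). At 0 ppm the adjusted p from limma was 0.0291. It was 0.00519 without that leaf, whereas it lay between 0.0543 and 0.0928 without GL replicate 1 or 4 or PSI-PI replicate 2, 3 or 4, and was 0.259 with only the 8 libraries of 0 ppm in the fit.

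SPA4 (AT1G53090, chromosome 1, 19783185 to 19786902, plus strand) is the gene closest to SPA3, with 81.4% identical coding bases. Its 16 GL-treated leaves ranged from 173 to 338 normalized counts with a median of 279, and its 16 PSI-PI-treated leaves from 284 to 683 with a median of 496. A single PSI-PI-treated leaf, again replicate 1 at 0 ppm, fell within the GL range. SPA4 was upregulated by 1.01 ± 0.19 (SE) on the log2 scale at 100 ppm, 0.94 ± 0.19 at 400 ppm and 1.02 ± 0.19 at 1000 ppm, and by 0.82 ± 0.09 on average (limma, adjusted p = 6.09e-08). At 0 ppm the difference of 0.31 ± 0.19 did not pass the test (limma, adjusted p = 0.340).

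Both SPA3 and SPA4 overlap a gene on the other strand, and whether reads were counted by strand is not given in the sources used here. The gene that overlaps SPA3, AT3G15350, fell by 0.67 on the log2 scale in PSI-PI-treated leaves, with mean normalized counts of 193 against 308 (limma, adjusted p = 6.93e-08), so it moved the other way. The gene that overlaps SPA4, AT1G53100, had means of 88.2 in PSI-PI and 76.5 in GL, and did not pass the test (limma, adjusted p = 0.993).

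COP1 (AT2G32950, chromosome 2, 13977881 to 13983609, plus strand) encodes the RING-finger subunit of the ligase. It had 661, 664, 708 and 689 normalized counts in GL at 0 ppm, 397, 510.0, 537 and 578 at 100 ppm, 556, 612, 698 and 636 at 400 ppm and 621, 568, 611 and 642 at 1000 ppm. The PSI-PI values were 661, 808, 737 and 861 at 0 ppm, 820.4, 629, 718 and 855 at 100 ppm, 842, 952, 1077 and 985 at 400 ppm and 745, 749.6, 834 and 875 at 1000 ppm. The treatments were separate at 100, 400 and 1000 ppm and overlapped at 0 ppm. The log2 differences of 0.58 ± 0.11 (SE) at 100 ppm, 0.62 ± 0.11 at 400 ppm and 0.39 ± 0.11 at 1000 ppm passed the test, and that of 0.16 ± 0.11 at 0 ppm did not (limma, adjusted p = 0.403). On average COP1 was higher by 0.44 ± 0.06 (limma, adjusted p = 3.52e-07). The call at 1000 ppm was lost without GL replicate 2 or 3 or PSI-PI replicate 3 or 4 (limma, adjusted p from 0.0506 to 0.0759).

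SPA1 (AT2G46340, chromosome 2, 19022154 to 19027528, minus strand), the first described member of the family and a repressor of phytochrome A signalling, was the most abundant of the 9 genes. Its GL-treated leaves ranged from 1878 to 3845 normalized counts with a median of 3133, and its PSI-PI-treated leaves from 2192 to 4877 with a median of 4267. In all, 10 of 16 PSI-PI-treated leaves lay above every GL-treated leaf. The average log2 difference was 0.40 ± 0.08 (limma, adjusted p = 0.000376). Single levels were called at 100 ppm (0.55 ± 0.17) and 1000 ppm (0.51 ± 0.17), not at 0 ppm (0.15 ± 0.17) or 400 ppm (0.39 ± 0.17). Without the leaf that stands apart, the difference at 0 ppm was 0.35 ± 0.15 (limma, adjusted p = 0.169). The call at 100 ppm was lost without GL replicate 1 or 2 or PSI-PI replicate 1 or 4 (limma, adjusted p from 0.0561 to 0.192), and that at 1000 ppm without any of the 8 leaves but PSI-PI replicate 1 (limma, adjusted p from 0.0571 to 0.137). Quantile normalization ended both calls (limma, adjusted p = 0.184 and 0.208). With only the 8 libraries of a level in the fit the call at 100 ppm was lost (limma, adjusted p = 0.0793) and 400 ppm was called (limma, adjusted p = 0.0330), and at 1000 ppm the call was also lost with a pseudocount of 0.5 (0.0501) or no mean-variance trend (0.0608).

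SPA2 (AT4G11110, chromosome 4, 6771605 to 6777225, plus strand), the SPA gene known for its role in dark-grown seedlings, had the smallest difference of the 9 genes. GL-treated leaves ranged from 392 to 999 normalized counts (median 802) and PSI-PI-treated leaves from 655 to 1124 (median 960.4), with 4 of 16 above every GL-treated leaf. The average log2 difference was 0.24 ± 0.06 (limma, adjusted p = 0.00323). The levels of 100 ppm (0.45 ± 0.13) and 400 ppm (0.38 ± 0.13) were called, those of 0 ppm (-0.03 ± 0.13, and 0.07 ± 0.13 without the leaf that stands apart) and 1000 ppm (0.17 ± 0.13) were not. The call at 100 ppm was lost without GL replicate 1 or PSI-PI replicate 1 or 4 (limma, adjusted p from 0.0751 to 0.141) and with only the 8 libraries of that level in the fit (0.133), and that at 400 ppm without GL replicate 1 or 2 or PSI-PI replicate 1, 2 or 3 (limma, adjusted p from 0.0554 to 0.0931).

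RUP1 (AT5G52250, chromosome 5, 21216772 to 21218351, plus strand) is a repressor of UVR8. It had 180.0, 79.4, 121 and 129 normalized counts in GL at 0 ppm, 271, 192, 160.2 and 142 at 100 ppm, 124, 77.1, 54.0 and 48.5 at 400 ppm and 62.0, 70.6, 52.0 and 55.0 at 1000 ppm. Its PSI-PI values were 225, 190.1, 169 and 203 at 0 ppm, 323, 308, 255 and 260.0 at 100 ppm, 135, 98.2, 149.8 and 173 at 400 ppm and 99.8, 69.1, 82.7 and 82.5 at 1000 ppm. The light treatments overlapped at all 4 CO2 levels. RUP1 was higher by 0.67 ± 0.12 on average on the log2 scale (limma, adjusted p = 6.89e-05), and 400 ppm (0.94 ± 0.25) was the single level at which it was called.

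RUP2 (AT5G23730, chromosome 5, 8005097 to 8006630, plus strand) acts with RUP1, with 71.5% identical coding bases. Its GL-treated leaves had 93.2, 49.8, 123 and 94.4 normalized counts at 0 ppm, 177, 185, 170.2 and 128 at 100 ppm, 99.3, 94.5, 83.3 and 92.2 at 400 ppm and 69.7, 71.4, 82.2 and 69.5 at 1000 ppm. Its PSI-PI-treated leaves had 139, 171, 128 and 140.1 at 0 ppm, 517, 309, 296 and 455 at 100 ppm, 140.5, 160.5, 277 and 254 at 400 ppm and 86.0, 117, 153 and 194 at 1000 ppm. The treatments did not overlap at any CO2 level. The average log2 difference was 0.98 ± 0.12 (limma, adjusted p = 3.86e-07), with calls at 100 ppm (1.22 ± 0.25), 400 ppm (1.11 ± 0.25) and 1000 ppm (0.84 ± 0.25). At 0 ppm, the value of 0.74 ± 0.25 did not pass the test (limma, adjusted p = 0.0672), but did without GL replicate 3 (limma, adjusted p = 0.0386). The call at 1000 ppm was lost without GL replicate 1, 2 or 4 or PSI-PI replicate 3 or 4 (limma, adjusted p from 0.0514 to 0.12) and with only the 8 libraries of that level in the fit (0.0754).

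**Figure D2:**
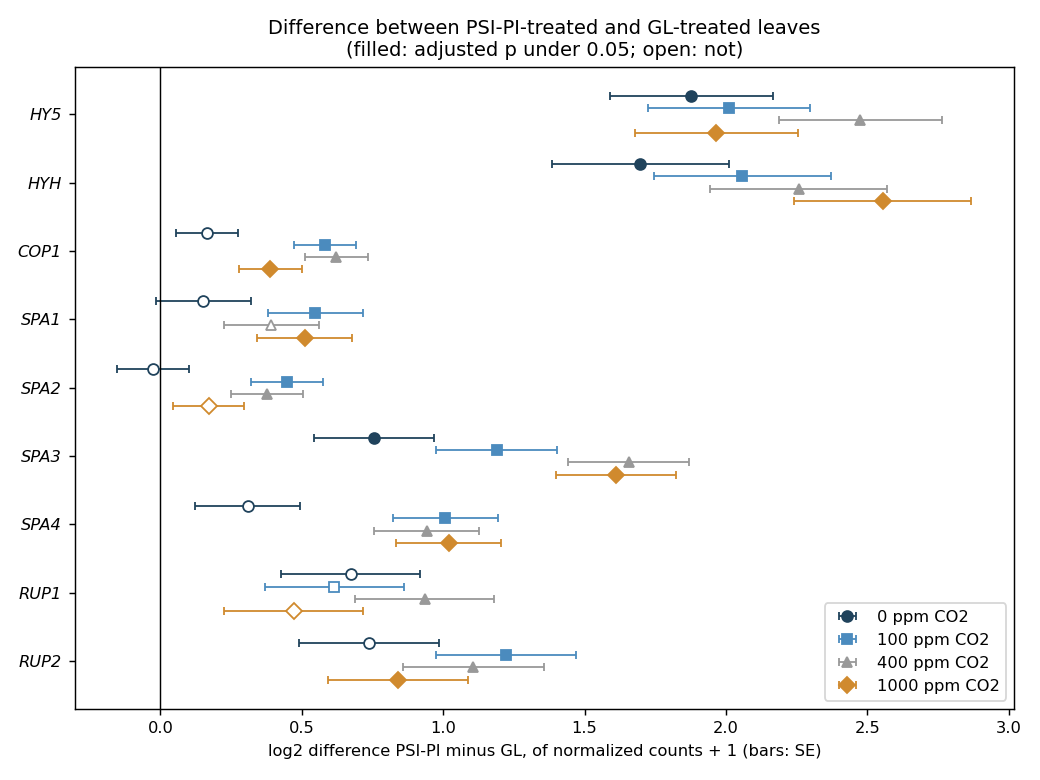
Log2 difference of PSI-PI-treated from GL-treated leaves (horizontal axis, on normalized counts + 1) for each of the 9 genes (vertical axis) at 4 CO2 levels (symbols), with the standard error from limma as bars and filled symbols where the adjusted p was under 0.05. The values of HY5 and HYH lie between 1.70 and 2.55, and SPA2 at 0 ppm (-0.03) is the only value below 0.

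Counted by CO2 level, 3 of the 9 genes were upregulated by PSI-PI at 0 ppm (HY5, HYH and SPA3) against 4.51% of all genes, 8 at 100 ppm against 6.64%, 8 at 400 ppm against 13.8% and 7 at 1000 ppm against 6.89%. Downregulated at these levels were 0 of the 9 genes, against 2.53%, 3.13%, 11% and 3.57% of all genes. HY5, HYH and SPA3 were called at all 4 levels, as were 1.46% of all genes. Groups without overlap were found for 3, 7, 8 and 7 of the genes from 0 to 1000 ppm, against 4.86%, 12%, 17.8% and 9.11% of all genes. DEGs numbered 2, 5, 4 and 4, against 1.02%, 1.27%, 3.28% and 1.86%. The median log2 difference of the 9 genes was 0.67 at 0 ppm, 1.01 at 100 ppm, 0.94 at 400 ppm and 0.84 at 1000 ppm, while that of all genes stayed between -0.01 and 0.00.

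At 0 ppm the light response of all 9 genes was estimated to be smaller than at 400 ppm, with differences of the log2 responses from -0.24 for SPA1 to -0.90 for SPA3, but none of these differences passed the test for an interaction (limma, smallest adjusted p = 0.104). At an adjusted p under 0.05, 3% of all genes were called against 0 of the 9, and at an unadjusted p under 0.05, 17.2% of all genes passed against 4 of the 9. The 95% intervals of the difference ran from -1.43 to 0.23 for HY5, from -1.47 to 0.35 for HYH, from -0.78 to -0.14 for COP1 and from -1.52 to -0.28 for SPA3. For SPA2 and SPA4 they ran from -0.77 to -0.04 and from -1.17 to -0.09. For SPA1, RUP1 and RUP2 they ran from -0.73 to 0.25, from -0.97 to 0.45 and from -1.09 to 0.35. Without PSI-PI replicate 4 at 0 ppm the SPA3 difference was -1.04 and passed (limma, adjusted p = 0.0481). Without the leaf that stands apart, the SPA3 difference was -0.69 (limma, adjusted p = 0.182). That of SPA1 was then -0.04 and that of HY5 -0.90 (limma, adjusted p = 0.953 and 0.188). For 100 and 1000 ppm against 400 ppm, 0 of 9 interactions were called by limma, against 0.0466% and 0% of all genes, and 0 passed at an unadjusted p under 0.05, against 11.6% and 7.66%. All 3 interaction contrasts share the 400 ppm leaves.

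Each CO2 level was compared with 400 ppm within a light treatment, so the comparisons of a treatment share their 400 ppm leaves. In GL-treated leaves most calls were made at 100 ppm. There HY5, RUP1 and RUP2 were upregulated and COP1 and SPA2 were downregulated, that is 3 of 9 on the upper side against 17.4% of all genes and 2 of 9 on the lower side against 17.1%. RUP1 was higher by 1.38 ± 0.25 (SE) on the log2 scale (limma, adjusted p = 8.41e-05), from a mean of 75.8 ± 34.2 (SD, n = 4) to 191 ± 57.0 normalized counts. RUP2 was higher by 0.82 ± 0.25 (limma, adjusted p = 0.0109) and HY5 by 0.90 ± 0.29 (limma, adjusted p = 0.0161), and for RUP1, RUP2 and HY5 the 4 leaves at 100 ppm all lay above the 4 leaves at 400 ppm, as they did for 20.3% of all genes. SPA2 fell by 0.49 (limma, adjusted p = 0.00378) without overlap, as 19.6% of all genes were lower without overlap, and COP1 fell by 0.32 (limma, adjusted p = 0.0274) with overlapping leaves. The HY5 call was lost without 400 ppm replicate 1 (limma, adjusted p = 0.0513), and the COP1 call without 100 ppm replicate 1 or 400 ppm replicate 3 or 4 (limma, adjusted p from 0.0599 to 0.160) or with only these 8 libraries in the fit (0.0746). HYH, with a difference of 0.73 ± 0.31, missed the threshold (limma, adjusted p = 0.0701) but passed it without 400 ppm replicate 4 (limma, adjusted p = 0.0337) or with only these 8 libraries in the fit (0.0405). SPA1 (-0.29 ± 0.17) was called lower with quantile normalization (limma, adjusted p = 0.0475).

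At 0 ppm in GL, RUP1 was the single gene called (0.78 ± 0.25, limma, adjusted p = 0.0151), against 17.2% of all genes called higher and 16.6% lower, so the 9 genes were not called more often than others. That call was lost without 0 ppm replicate 1 or 400 ppm replicate 3 or 4 (limma, adjusted p from 0.0632 to 0.0789) and with only these 8 libraries in the fit (0.109). HY5 had a difference of 0.72 ± 0.29 (limma, adjusted p = 0.0525), which passed without 0 ppm replicate 1 (0.97, limma, adjusted p = 0.0104), with quantile normalization (0.0343) and with the stricter filter on low values (0.0472), and HYH one of 0.70 ± 0.31 (limma, adjusted p = 0.0873), which passed without 400 ppm replicate 4 (limma, adjusted p = 0.0452). At 1000 ppm in GL, limma called 0 of the 9 genes, 0 of them had an unadjusted p under 0.05, and 0.377% of all genes were called. HY5 (41.9 to 49.99 against 56.1 to 76.5) and RUP2 (69.5 to 82.2 against 83.3 to 99.3) were lower than at 400 ppm without overlap, as were 3.96% of all genes, with log2 differences of -0.59 ± 0.29 and -0.33 ± 0.25.

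In PSI-PI-treated leaves at 100 ppm, RUP1 and RUP2 were upregulated relative to 400 ppm and COP1 and SPA2 downregulated, which is 2 of 9 in each direction against 11.2% of all genes higher and 11.4% lower. RUP1 was higher by 1.06 ± 0.25 (limma, adjusted p = 0.00262) and RUP2 by 0.94 ± 0.25 (limma, adjusted p = 0.00735), both without overlap, against 16% of all genes. SPA2 fell by 0.42 without overlap, against 13.8% of all genes (limma, adjusted p = 0.0186), and COP1 fell by 0.36 (limma, adjusted p = 0.0211). The COP1 call was lost without 100 ppm replicate 2 or 3 or 400 ppm replicate 3 (limma, adjusted p from 0.0570 to 0.103) and the SPA2 call without 100 ppm replicate 2 (limma, adjusted p = 0.0789).

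At 0 ppm in PSI-PI, COP1 (-0.33 ± 0.11, limma, adjusted p = 0.0338) and SPA3 (-0.65 ± 0.21, limma, adjusted p = 0.0307) were lower than at 400 ppm, 2 of 9 against 11% of all genes, and 0 were higher against 9.99%. Neither call held without the leaf that stands apart, with differences of -0.26 ± 0.11 and -0.44 ± 0.21 (limma, adjusted p = 0.136 and 0.172). COP1 was also lost without 0 ppm replicate 3 or 400 ppm replicate 3 or 4, and SPA3 without 400 ppm replicate 2, 3 or 4 (limma, adjusted p from 0.0564 to 0.124), and both with only these 8 libraries in the fit (0.146 and 0.13). With a replicate block, SPA4 was called lower as well (limma, adjusted p = 0.0330). Without 0 ppm replicate 4, SPA1, SPA2 and SPA4 were called lower (limma, adjusted p = 0.0222, 0.0284 and 0.0336). The SPA1 difference was -0.39 ± 0.17 with all leaves and -0.19 ± 0.15 without the leaf that stands apart (limma, adjusted p = 0.459). For HY5 the difference was 0.12 ± 0.29 with all leaves and -0.18 ± 0.27 without that leaf (limma, adjusted p = 0.729).

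At 1000 ppm in PSI-PI, HY5 was the single gene called, lower by 1.09 ± 0.29 than at 400 ppm (limma, adjusted p = 0.0455), with 106 to 251 normalized counts against 252 to 509.6 and so without overlap. On the lower side 1.01% of all genes were called and 6.28% did not overlap, and on the upper side 0.671% were called and 0 of the 9 genes. The call was lost with a replicate block (limma, adjusted p = 0.0547), without a mean-variance trend (0.0593) and with only these 8 libraries in the fit (0.105). It was also lost without 400 ppm replicate 1, 3 or 4 and without 1000 ppm replicate 1, 2 or 3 (limma, adjusted p from 0.0627 to 0.180). HYH, whose difference was -0.18 ± 0.31, had 121 to 366 normalized counts at 1000 ppm and 183 to 384 at 400 ppm.

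**Figure D3:**
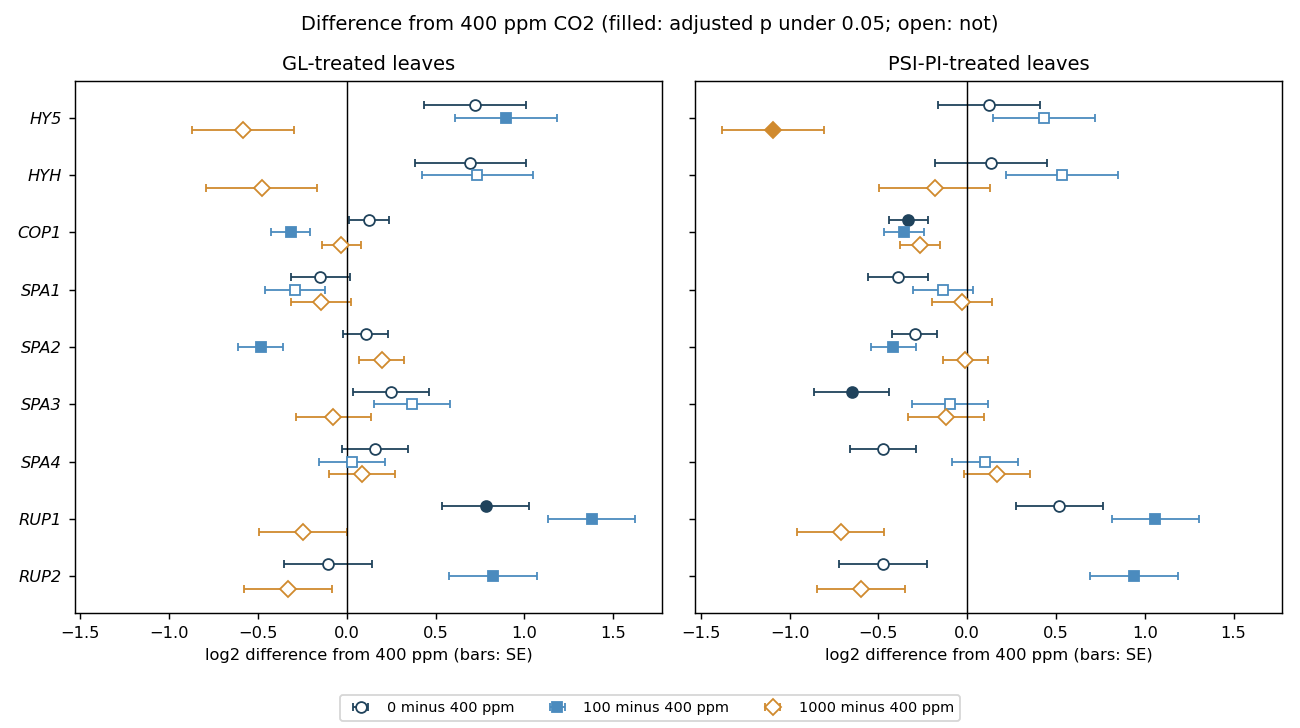
Log2 difference from 400 ppm CO2 (horizontal axis, on normalized counts + 1) of the 9 genes (vertical axis) at 0, 100 and 1000 ppm (symbols), in GL-treated (left) and PSI-PI-treated (right) leaves, with the standard error from limma as bars and filled symbols where the adjusted p was under 0.05. RUP1 at 100 ppm is the highest value in both panels (1.38 and 1.06), and HY5 at 1000 ppm in PSI-PI the lowest (-1.09). Within a panel all 3 differences of a gene share its 400 ppm leaves.

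Ordered by their means, all 4 PSI-PI groups stood above all 4 GL groups for HY5, HYH, COP1, SPA1, SPA3 and SPA4. For RUP1 and RUP2 the GL group at 100 ppm (191 ± 57.0 and 165 ± 25.5, SD, n = 4) stood above the PSI-PI groups at 400 and 1000 ppm for RUP1 (139 ± 31.5 and 83.5 ± 12.6) and above those at 0 and 1000 ppm for RUP2 (144 ± 18.2 and 137 ± 46.4). For SPA2 the PSI-PI group at 100 ppm (765 ± 90.5) stood below the GL groups at 400, 0 and 1000 ppm (783 ± 59.7, 844 ± 71.2 and 897 ± 68.7). The SPA2 mean in PSI-PI at 0 ppm (835 ± 133) stood below those in GL at 0 and 1000 ppm. The ranges of most neighbouring groups in these orders overlapped. The PSI-PI group at 100 ppm was the highest of the 8 for HY5 (529 ± 104), HYH (435 ± 44.0), RUP1 (286 ± 34.1) and RUP2 (394 ± 109), and for HYH, RUP1 and RUP2 it did not overlap the group next below. For COP1 (964 ± 96.7), SPA1 (4393 ± 331), SPA2 (1016 ± 34.3) and SPA3 (2031 ± 273) the highest mean was that of PSI-PI at 400 ppm, which overlapped its neighbour.

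Divided by the length of the longest annotated transcript, SPA1 had the highest level, with 864 normalized counts per kb on average over the 32 leaves, followed by SPA3 (357), COP1 (288), HYH (271), SPA2 (212), HY5 (209.8), SPA4 (127), RUP2 (106) and RUP1 (91.8). At 400 ppm the level of HY5 was 59.7 per kb in GL, below SPA4 (87.6), and 345 per kb in PSI-PI, above SPA4 (167). At 0 and 100 ppm HY5 stood above SPA4 in GL too (103 against 96.8, and 111 against 90.5 per kb), and at 1000 ppm it stood below SPA4 also in PSI-PI (164 against 188 per kb).

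Leaves of the same group also differed from each other in a patterned way. The deviations of the 32 leaves from their group means on the log2 scale correlated between COP1 and SPA1, SPA2, SPA3 and SPA4 with Pearson r of 0.84, 0.77, 0.78 and 0.85, and among the SPA genes with r of 0.64 to 0.85. At r of at least 0.75, COP1 was matched by 0.702% of 18090 genes and SPA1 by 5.1%. RUP1 had negative r with these genes, of -0.63 with SPA4, -0.56 with SPA2, -0.55 with SPA3, -0.41 with COP1 and -0.39 with SPA1. Over the 18090 genes the 5th percentile of r was -0.44 for RUP1. It was -0.54 for SPA4, -0.58 for SPA2, -0.59 for SPA3, -0.59 for COP1 and -0.73 for SPA1. The r of RUP1 with SPA4 lay below the 5th percentile of both genes. Those with SPA2 and SPA3 lay below that of RUP1 only, and those with COP1 and SPA1 below neither. HY5 and HYH had r of 0.46 with each other, where the 95th percentile over the 18090 genes was 0.55 for HY5 and 0.44 for HYH. HY5 had r of 0.20 with COP1 and of -0.14 to 0.23 with the SPA genes. HYH had r of 0.36 with COP1, 0.59 with SPA3, 0.50 with SPA4, 0.35 with SPA1 and 0.04 with SPA2. With RUP2 and RUP1 the r of HYH was 0.51 and -0.27. These are descriptions over leaves that share their libraries and scaling, and the measure was chosen after values had been seen. In replicate 1 of PSI-PI at 0 and 1000 ppm and of GL at 100 and 400 ppm, COP1 and each SPA gene had the lowest value of their group. RUP1 had the highest value of its group in the same leaves. The r values without these leaves were not computed.

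**Figure D4:**
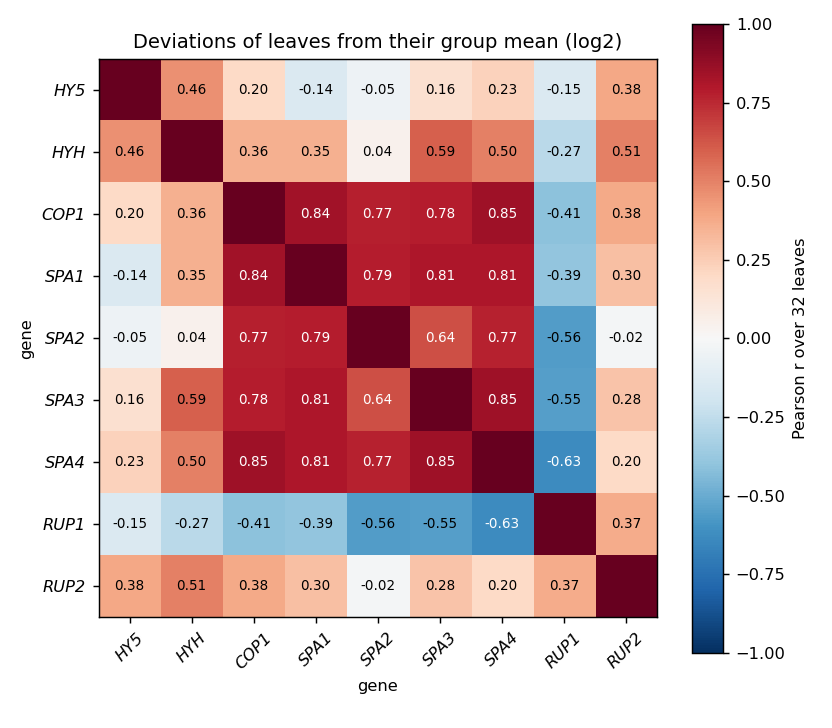
Pearson r (colour scale from -1 to 1, and printed in each cell) between pairs of the 9 genes (both axes) of the log2 deviations of the 32 leaves from their group means. COP1 and the 4 SPA genes form a block of r from 0.64 to 0.85, and RUP1 is negative with each of them.

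The same comparison was made for other genes of the pathway, in lists chosen with earlier results of these data known. Of the 8 photoreceptor genes, 4 were upregulated and 1 downregulated in PSI-PI averaged over CO2, with a median log2 difference of 0.11 against -0.01 for all genes, of which 18.8% were called higher and 17.8% lower. The phytochrome gene PHYC ranged from 531 to 785 normalized counts in GL (median 702) and from 616 to 1086 in PSI-PI (median 836), a difference of 0.31 ± 0.05 (limma, adjusted p = 4.44e-06). PHYE (0.30 ± 0.08), CRY2 (0.12 ± 0.04) and the UV-B receptor gene UVR8 (0.12 ± 0.04) were called too. The downregulated gene was PHYA, the phytochrome of far-red responses (-0.28, limma, adjusted p = 0.0279), named after its value was seen. Of 7 genes for cullin-ligase partners of COP1 and DET1, 0 were called higher and 1 lower, against 18.8% and 17.8% of all genes, the small subunit gene DDA1 (-0.19 ± 0.07, limma, adjusted p = 0.0381). The cullin gene CUL4 (-0.07 ± 0.05), DET1 (0.13 ± 0.09) and COP10 (0.21 ± 0.09) did not pass the test.

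B-box genes, whose zinc-finger proteins bind HY5 or COP1, numbered 10 among the genes tested. Of these 7 were higher, against 18.8% of all genes, and 1 was lower, against 17.8%, with a median of 0.41. BBX31 ranged from 9.39 to 66.6 normalized counts in GL (median 33.5) and from 56.5 to 219 in PSI-PI (median 133), a difference of 1.88 ± 0.19 (limma, adjusted p = 1.10e-08). BBX32, which encodes an inhibitor of the HY5 partner BBX21, differed by 1.38 ± 0.17, BBX25 by 0.80 ± 0.09 and BBX24, which encodes a repressor of HY5 activity, by 0.46 ± 0.06. The lower one was BBX21, which encodes an activator of HY5 transcription (-0.16, limma, adjusted p = 0.0312), also named after its value was seen. Of 10 other factors that COP1 targets or that act on HY5 transcription, 1 was higher and 2 were lower, against the same shares of all genes, with a median of -0.14. FHL, which encodes a carrier of phytochrome A into the nucleus, fell by 0.88 (limma, adjusted p = 0.000164), and HFR1, a basic helix-loop-helix factor degraded through COP1, fell by 0.69 (limma, adjusted p = 0.000197). GBF1 was higher by 0.20 ± 0.04, and CAM7 had a difference of -0.22 ± 0.10 that did not pass (limma, adjusted p = 0.0704).

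Of 14 genes known as targets of HY5 or of UV-B signalling, 6 were upregulated, against 18.8% of all genes, and 0 downregulated, against 17.8%, with a median of 0.48. SIG5, the gene for a light-responsive plastid sigma factor, ranged from 225 to 1523 normalized counts in GL (median 615) and from 763 to 7398 in PSI-PI (median 2129), a difference of 1.86 ± 0.17 (limma, adjusted p = 2.05e-09). The glutathione peroxidase gene GPX7 was higher by 1.26 ± 0.13 (limma, adjusted p = 1.10e-08), the cryptochrome gene CRY3 by 1.08 ± 0.13 (limma, adjusted p = 1.59e-07) and the flavanone 3-hydroxylase gene F3H by 0.97 ± 0.22 (limma, adjusted p = 0.000968). The leaves of the treatments overlapped for F3H, with 65.2 to 579.8 normalized counts in GL and 100.3 to 504 in PSI-PI.

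Among 18090 genes that averaged at least 10 normalized counts, the log2 values over the 32 leaves were most like those of HY5 in AT1G45230, AT4G31115 and AT1G66130 (Pearson r of 0.95, 0.95 and 0.94), and most like those of HYH in AT3G56290, SPS1 and HBP1 (0.96, 0.95 and 0.94). For COP1 they were AT1G65070, SWN and CHUP1 (0.92 each), and for SPA1 KAC1, AT4G32190 and FZL (0.97, 0.95 and 0.93). For RUP1 they were WAV2, NF-YC1 and AT2G16586 (0.93, 0.92 and 0.92), and for RUP2 BETA-OHASE 1, AT4G36530 and GSR2 (0.94, 0.93 and 0.93). Members were also like each other on this measure. HY5 and HYH had r of 0.92, HYH standing at place 24 for HY5 and HY5 at place 19 for HYH, and SPA3 stood at place 5 for SPA4 with r of 0.94. The r values describe leaves that share group and library. When the 8 group means were used in place of the leaves, 1 of the 3 genes was shared for HY5, SPA1 and RUP2 and 0 of 3 for HYH, COP1 and RUP1.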

How the data were processed

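Leaf mRNA was sequenced in 32 samples, 4 per group. Per the labels and the study's methods, the authors estimated transcript abundance with Salmon 0.12 on TAIR10 cDNA, summed it to genes, removed genes with very low counts and deposited values normalized with DESeq2, that is normalized counts per gene, which are treated here as a signal and not as raw counts. Whether reads were assigned by strand is not given in the sources used here. The deposited log2 fold changes and p-values of the authors' own comparisons were not used.

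A gene was kept if its normalized counts summed to at least 10 over the samples (21469 of 21525). Values were transformed as log2(value + 1) and fitted with limma 3.58.1 (R 4.3.3), with 8 group means over all samples, 24 residual degrees of freedom, a mean-variance trend and Benjamini-Hochberg adjustment over all genes tested. Differences are therefore on the log2(value + 1) scale, which understates changes of low genes. A gene was called at an adjusted p under 0.05 and was a DEG if its absolute log2 difference was also at least 1. Tests were two-sided. The light treatments were compared at each CO2 level and averaged over the levels, each CO2 level was compared with 400 ppm within each light treatment, and interactions tested whether the light response differed from that at 400 ppm. Raw depth is unknown, because the values were rescaled, so no counting interval is given. The p-values measure the spread between leaves. Whether the leaves of a group came from separate runs of the treatment chamber is not given in the sources used here. If they did not, run and treatment cannot be told apart.

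Alternatives were pseudocounts of 0.5 and 5, no filter, a filter of at least 10 normalized counts in at least 4 samples, quantile normalization, no trend, a fit to the groups of a contrast alone, a block for the replicate number, leaving out each leaf, and the DEG rule. Sequences and gene positions were read from RefSeq TAIR10.1. Summaries and plots used Python 3.11.15, pandas 2.3.3, numpy 2.4.6 and matplotlib 3.10.9.

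The 9 genes and the pathway lists were chosen with earlier results of these data known. Of each list, at most the 4 genes with the smallest adjusted p in the averaged light comparison were named, except that PHYA and BBX21 were named in addition after their values were seen, and for 6 of the 9 genes the 3 most alike. BBX23, of the B-box list, was not analysed here.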

Additional observations from a re-analysis of the deposited data

Results flagged for a closer look

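In 3 of the 72 sets of 4 leaves (9 genes in 8 groups), 1 leaf lay far from the other leaves of its group. Chance alone gives about 1 such leaf in 20 groups. SPA3 in PSI-PI at 400 ppm had 1622 normalized counts in replicate 1 and 2146 to 2198 in the others. SPA4 in GL at 1000 ppm had 323 in replicate 1 and 261 to 269 in the others. RUP2 in GL at 1000 ppm had 82.2 in replicate 3 and 69.5 to 71.4 in the others.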

How the results depend on the processing

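No difference of the 9 genes in any comparison changed direction while being called, under any setting tried. Of their values under settings other than leaving out a leaf, 977 kept their side of the limma threshold, 6 passed it newly and 16 no longer passed it. With 1 leaf left out the numbers were 1374, 8 and 58. For light averaged over CO2, all 9 genes were called under each setting except the DEG rule (3 genes). Under that rule the light counts were 5 at 100 ppm, 4 at 400 ppm and 4 at 1000 ppm, and the CO2 counts were 0 for 0 ppm and 1 for 100 ppm in GL, and 0 and 1 in PSI-PI. With the groups of a contrast alone, 1 gene was called for light at 0 ppm and 0 for 0 ppm in GL, 0 ppm in PSI-PI and 1000 ppm in PSI-PI. For 0 ppm in GL, the filter of at least 10 normalized counts in at least 4 samples and quantile normalization each gave 2 genes. For 1000 ppm in PSI-PI, the fit without a trend gave 0.

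Leaving out single leaves, the genes called for light ranged from 2 to 4 at 0 ppm, 6 to 8 at 100 ppm, 7 to 8 at 400 ppm and 4 to 7 at 1000 ppm, and stayed at 9 on average. Against 400 ppm they ranged in GL from 0 to 1 at 0 ppm, 4 to 5 at 100 ppm and 0 to 0 at 1000 ppm, and in PSI-PI from 0 to 5, 2 to 4 and 0 to 1. The interaction at 0 ppm ranged from 0 to 1.

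Over all genes, leaving out single leaves gave 719 to 1982 calls for light at 0 ppm (1513 with all leaves), 1157 to 1926 at 100 ppm (2098), 4036 to 4925 at 400 ppm (5326), 1463 to 2392 at 1000 ppm (2246) and 7411 to 8541 on average (7860). Against 400 ppm the ranges in GL were 5700 to 7560 (7256), 6140 to 7015 (7391) and 24 to 382 (81), and in PSI-PI 2350 to 6317 (4506), 3622 to 4548 (4863) and 23 to 643 (361). For the interactions they were 339 to 991 (643), 2 to 27 (10) and 0 to 1 (0). With the groups of a contrast alone, light at 0 ppm gave 32 calls, light at 1000 ppm 1454, 1000 ppm in GL 17, 0 ppm in PSI-PI 457 and the interactions 304, 412 and 1. Without a trend, 1000 ppm in PSI-PI gave 240 and the interaction at 100 ppm 4. Quantile normalization gave 35 for that interaction.

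Over all genes, same-numbered leaves shared little of their deviation. The mean correlation of same-numbered leaves was over 0.1 in 2 of 28 pairs of groups, with a highest mean of 0.16. Of the 112 single correlations, 29 were over 0.1. For COP1 and the SPA genes replicate 1 was the lowest leaf in 5 or 6 of 8 groups, and for RUP1 the highest in 6 of 8. With a replicate block, the call of HY5 at 1000 ppm in PSI-PI was lost (limma, adjusted p = 0.0547), leaving 0 genes called there, SPA4 at 0 ppm in PSI-PI was gained (limma, adjusted p = 0.0330), and the interaction at 100 ppm gave 3 calls over all genes. The block changed no other call of the 9 genes. With the 8 group means in place of 32 leaves, the genes most like HY5, SPA1 and RUP2 kept 1 of 3, and those of HYH, COP1 and RUP1 kept 0 of 3. The cause of these changes was not tested.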

Other observations

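Within groups, replicate 1 was the lowest of the 4 leaves in 6 of 8 groups for COP1 and SPA4 and in 5 of 8 for SPA1, SPA2 and SPA3, and it was the highest in 6 of 8 groups for RUP1. Replicate 4 was the highest for COP1 in 5 of 8 groups. The log2 deviation of replicate 1 from its group mean averaged -0.25 for SPA4, -0.22 for SPA3, -0.18 for SPA1, -0.13 for SPA2, -0.11 for COP1 and 0.32 for RUP1 over the 8 groups. What the replicate numbers share was not given in the sources used here.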
